A study of Mus musculus with 18 samples.

Results

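The genes described here are 39 macrophage, antigen presentation, complement, chemokine and leukocyte genes, taken by symbol from a fixed list of names. The list was chosen with earlier results of these data known. All 39 were found, through their Ensembl identifiers, among the 41388 features counted in each of 18 RNA-seq libraries. The libraries hold total RNA, depleted of ribosomal RNA, from 2 mouse muscles: the gastrocnemius, a mostly fast calf muscle, and the soleus, a slower one that lies under it. The design asks what changes in each muscle when Site-1 Protease (S1P, gene Mbtps1), a Golgi protease that frees the SREBPs, ATF6 and other transcription factors from membranes, is deleted in skeletal muscle. The controls were Site-1 Protease floxed mice. The mice labelled knockout were Site-1 Protease floxed HSACre+, that is, the same floxed allele with Cre under the promoter of human skeletal actin, a gene of muscle fibres. All groups were 12 weeks old, ate standard chow and were fasted for 4 h before the muscles were taken. There is no group with Cre and an intact gene, so loss of S1P and presence of Cre cannot be told apart in any comparison. The labels and text used here do not give the genetic background or the sex of the mice.

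In the gastrocnemius, 5 libraries were labelled control (libraries 1, 3, 4, 5 and 8) and 4 were labelled knockout (2, 6, 7 and 9). In the soleus, 5 were controls (34, 36, 37, 38 and 41) and 4 were labelled knockout (35, 39, 40 and 42), although the series text gives 4 per group. Lists of values below follow these orders. No label states that the libraries of a group came from separate mice, so the p-values measure the spread between these libraries, which may be technical. Nor do the labels say whether the muscles came from the same mice. Control and knockout labels follow each other in the same order in libraries 1 to 9 and 34 to 42, but no label pairs them, so comparisons across muscles treated the libraries as independent. Library totals ran from 39.0 to 78.2 M counts, of which the 39 genes together took 0.0167% to 0.0812%. The level of Mbtps1 did not fall in libraries labelled knockout: it ranged from 29.6 to 34.9 CPM (counts scaled to a common library size) in gastrocnemius controls and from 34.7 to 42.8 CPM in the libraries labelled knockout, and from 30.5 to 34.4 and 31 to 36.3 CPM in the soleus. The labels do not name the deleted exon, and a count over the whole gene does not resolve it, so every direction below rests on the labels. Muscle markers were high throughout. Creatine kinase (Ckm) lay at 2764 CPM or more in every library, and the slow myosin Myh7 lay at 107 to 530 CPM in gastrocnemius libraries and at 5797 to 11485 CPM in soleus libraries. Libraries 7 and 40 stood apart for the genes described here. Library 7 was the highest of the 9 gastrocnemius libraries in 34 of the 39, and library 40 the highest of the 9 soleus libraries in 32 of the 39, so results are also given without them.

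Skeletal muscle holds resident macrophages in the connective tissue between its fibres, and monocytes enter from the blood when fibres are injured or regenerate. These cells need the receptor Csf1r for survival, and the transcription factor Spi1 (PU.1) switches on many of their genes; they take up debris through scavenger, complement and Fc receptors, digest it in lysosomes and present peptides on class II molecules. The genes below are expressed mainly by leukocytes, not by the fibres in which the skeletal actin promoter drives Cre. The libraries are of bulk tissue, in which more cells of a type and more RNA per cell cannot be told apart.

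The promoters of a few of these genes are shown because Spi1 and the class II genes recur in the results. Only promoters with a match are shown, for GAGGAA among the genes called higher in the gastrocnemius below and for ATTGG among the class II genes. Of the others, Lgals3 had an entry without GAGGAA, and Ccr2, Spi1 and H2-Ab1 had no such match or no entry. Of the 39 genes, 29 had an entry in the RefSeq promoter table (build GRCm38.p6), and the 250 bases before each listed start were searched on both strands. The letters GAGGAA are part of the sequence that Spi1, an ETS factor, recognises. They were found before 12 of the 29 genes (41.4%) and before 25.9% of all 27025 genes in the table. The longer form GAGGAAGT, which contains GAGGAA, was found before 1 of the 29 (C1qc, 3.45%) and before 2.79% of all genes. The letters ATTGG, an inverted CCAAT box and part of the Y box of class II promoters, were found before 13 of the 29 (44.8%) and before 37.5% of all genes. A match is a description of the letters, not evidence that a factor binds there. Capitals mark the motif, GAGGAA in the first 3 sequences and ATTGG in the last 2; on the opposite strand they read TTCCTC and CCAAT. The windows run 5′ to 3′ towards the listed start: Itgam at chr7:128062390-128062639 (plus strand), Ptprc at chr1:138175306-138175555 (minus strand), Trem2 at chr17:48346151-48346400 (plus strand), H2-Aa at chr17:34287824-34288073 (minus strand) and H2-Eb1 at chr17:34305617-34305866 (plus strand).
Itgam: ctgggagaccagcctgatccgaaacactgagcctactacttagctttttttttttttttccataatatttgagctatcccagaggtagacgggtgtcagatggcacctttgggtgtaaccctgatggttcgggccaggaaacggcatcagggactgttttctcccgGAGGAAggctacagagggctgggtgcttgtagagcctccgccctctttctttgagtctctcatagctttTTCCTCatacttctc
Ptprc: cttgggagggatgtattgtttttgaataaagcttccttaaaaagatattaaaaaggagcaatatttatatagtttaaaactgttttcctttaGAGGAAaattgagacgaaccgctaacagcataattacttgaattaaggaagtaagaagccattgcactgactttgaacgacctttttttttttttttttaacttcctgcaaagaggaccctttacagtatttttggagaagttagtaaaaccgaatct
Trem2: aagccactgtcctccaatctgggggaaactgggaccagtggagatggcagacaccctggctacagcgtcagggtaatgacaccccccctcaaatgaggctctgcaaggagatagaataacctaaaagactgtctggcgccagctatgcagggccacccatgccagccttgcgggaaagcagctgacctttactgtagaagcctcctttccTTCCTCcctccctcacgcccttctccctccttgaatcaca
H2-Aa: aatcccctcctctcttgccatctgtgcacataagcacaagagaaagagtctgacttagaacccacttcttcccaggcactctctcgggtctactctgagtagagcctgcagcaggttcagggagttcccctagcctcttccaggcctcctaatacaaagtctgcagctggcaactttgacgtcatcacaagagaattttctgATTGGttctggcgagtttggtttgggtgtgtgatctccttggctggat
H2-Eb1: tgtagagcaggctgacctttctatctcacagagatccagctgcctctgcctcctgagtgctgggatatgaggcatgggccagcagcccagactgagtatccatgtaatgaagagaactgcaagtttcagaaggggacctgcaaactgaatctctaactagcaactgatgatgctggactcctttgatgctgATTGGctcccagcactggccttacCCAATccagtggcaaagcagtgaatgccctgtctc

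In Itgam, the matches began 84 and 15 bases before the start, the second on the opposite strand. In Ptprc the match began 158 bases before the listed RefSeq start, and in Trem2 40 bases before it on the opposite strand. The Ptprc window lies inside the gene as counted (138063407 to 138175706, minus strand), because the listed start is not the outermost end of that gene. The class II gene H2-Aa carried ATTGG 48 bases before its start, and H2-Eb1 59 bases before its start and again, on the opposite strand, at 35 bases.

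In control muscle the most abundant of these genes per length were those of antigen presentation, lysozyme and the complement C1q chains. Levels in this paragraph are CPM per kilobase of gene length, the only scale on which genes are compared with each other. The length is the one deposited for each gene, such as 17763 bases for Ptprc and 4946 for Trem2. Ranks depend on that length, and the length of the transcripts present was not examined. In gastrocnemius controls the invariant chain Cd74, which escorts class II molecules, had a mean of 32.1 (range 25.2 to 45.4). Next in order were the macrophage lysozyme Lyz2 at 18.3 (15.2 to 25.6), H2-Eb1 at 15.3 (11.3 to 22.4), H2-Ab1 at 12.5 (10.3 to 17.5) and C1qa at 11.5 (8.29 to 14.2). The range of Cd74 just met that of Lyz2, and the ranges of the other neighbours in this order overlapped. Then came C1qb, H2-Aa and C1qc, the haemoglobin scavenger receptor Cd163 at 5.82 (4.63 to 6.94) and Csf1r at 4.22 (3.4 to 5.34). The pan-leukocyte phosphatase Ptprc (CD45) was low per length, at 0.216 (0.174 to 0.277), and the lowest were the Fc receptor Fcgr1, the lipid receptor Trem2 at 0.0722 (0.0239 to 0.105) and the T cell receptor chain Cd3g. Soleus controls had the same first 3 genes and the same last 7: Cd74 lay at 16.5 (11.4 to 25.3), Lyz2 at 11.1 (9.21 to 14.1) and Trem2 at 0.0818 (0.0542 to 0.108). These are total expression levels of a mixed tissue and give no count of cells.

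**Figure D1:**
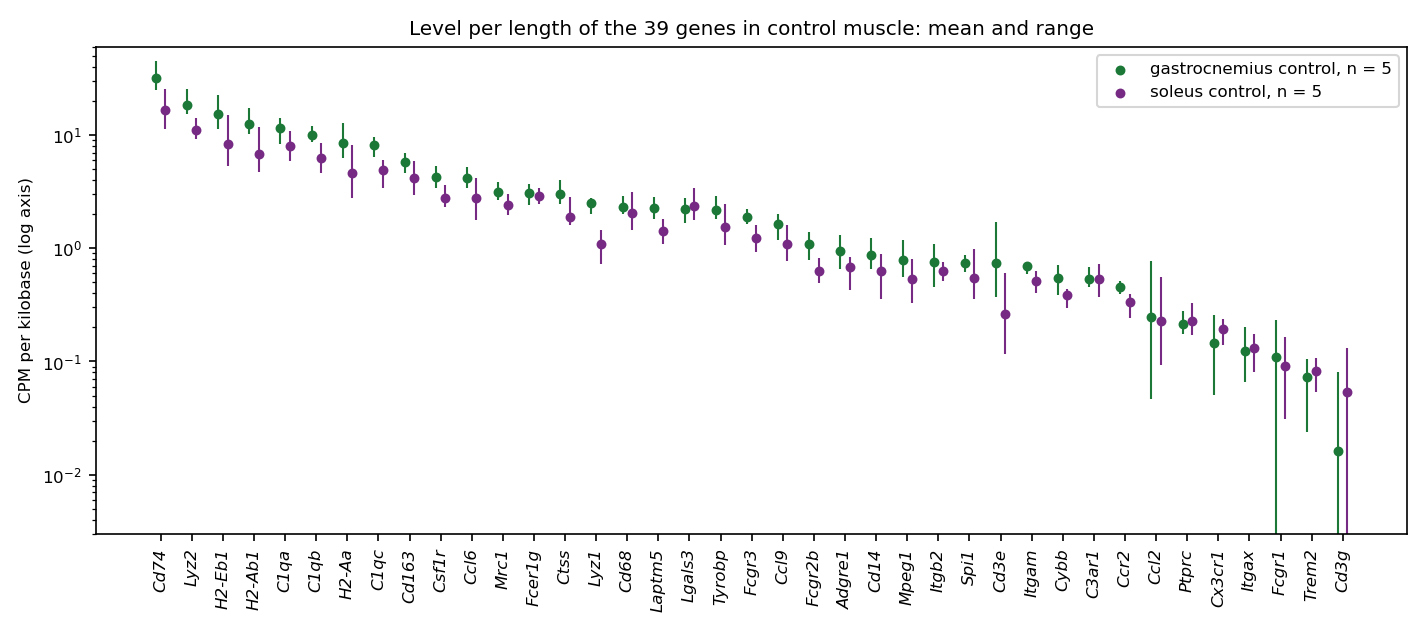
Mean (points) and range (lines) of the level per gene length, in CPM per kilobase on a log axis, for the 39 genes in the 5 gastrocnemius control and 5 soleus control libraries. Cd74 lies highest in both muscles (means of 32.1 and 16.5) and Cd3g lowest; lines that reach the lower edge stand for libraries with 0 counts of Fcgr1 or Cd3g.

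In the gastrocnemius, the libraries labelled knockout had higher levels of pan-leukocyte and myeloid genes, with 6 of the genes passing the test: Ptprc, the chemokine receptor Ccr2, the transcription factor Spi1, the integrin chain Itgam, the galectin Lgals3 and Trem2. Their group means were 1.62-fold to 3.51-fold those of controls in the fit. A gene is said to have risen or fallen where its adjusted p, from edgeR's quasi-likelihood test with Benjamini-Hochberg adjustment over all genes tested, was under 0.05. Of the 39 genes, 38 had enough counts to be tested, and 6 of these (15.8%) rose and 0 fell, whereas 1.77% of all 16393 genes tested rose and 2.01% fell. Because the list was chosen with earlier results of these data known, the shares of all genes given here and below are descriptive. They are not independent support. The median log2 fold change of the 38 was 0.93, with 37 positive, and that of all genes was 0.02, with 53.5% positive. In 8 of the 38 (21.1%) every library labelled knockout lay above every control, as it did in 3.79% of all genes tested. An unadjusted p under 0.05 was reached by 29 of the 38 and by 18.6% of all genes. Without library 7, the median of the 38 was 0.58 with 36 positive, and 6 genes passed the test, 4 of them among the 6 named above. The number that passed was 15 without library 2, 3 without control 1, 4 or 8, and 2 without control 5. With library totals in place of TMM factors all genes split into 347 higher and 163 lower in place of 290 and 329, and 5 of the 38 rose and 0 fell. DESeq2 called 20 of the 38, including all 6, and limma voom 4, while they called 1235 and 577 of all 16393 genes. A fit of all 18 libraries called 5 of the 38. It kept 3 of the 6 named above and lost Ccr2, Itgam and Spi1.

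Among pan-leukocyte and lineage genes, 3 of 6 rose, and 6 passed by DESeq2 and 2 by limma voom. Ptprc (ENSMUSG00000026395, chromosome 1, 138063407 to 138175706), the phosphatase carried by all leukocytes, held 3.48, 3.43, 3.1, 4.25 and 4.91 CPM in controls and 6.35, 7.79, 8.63 and 7.73 CPM in the libraries labelled knockout. The groups did not overlap, and library 7 was only slightly above libraries 6 and 9. The means were 3.84 ± 0.736 CPM (SD, n = 5) and 7.63 ± 0.943 CPM (SD, n = 4). Ptprc rose by 0.99 on the log2 scale (SE 0.15, adjusted p = 0.00329) and passed in all 14 alternative fits. Spi1 (ENSMUSG00000002111, chromosome 2, 91082390 to 91115756), which directs myeloid development, held 2.19, 1.66, 2.07, 1.75 and 2.37 CPM in controls and 3.2, 3.32, 5.92 and 3.65 CPM in the libraries labelled knockout. Library 7 was far above the other 3, which were close together and all above the highest control. Spi1 rose by 0.99 on the log2 scale (SE 0.20, adjusted p = 0.0173). Its adjusted p was 0.0437 without library 7, 0.0543 without control 5 and 0.0651 in a fit of all 18 libraries. Itgam (ENSMUSG00000030786, chromosome 7, 128062640 to 128128160), the CD11b chain of the complement receptor that myeloid cells use for adhesion, held 4.3, 4.61, 3.75, 4.76 and 4.83 CPM in controls and 5.52, 7.13, 10.1 and 6.06 CPM in the libraries labelled knockout. All 4 were above the controls, though library 2 exceeded the highest control by less than 1 CPM. Itgam rose by 0.69 (SE 0.16, adjusted p = 0.0335); without library 7 the value was 0.49 and missed the threshold (adjusted p = 0.0885), as it did without library 6 (0.0916) or control 1, 4, 5 or 8 (0.0556 to 0.0871).

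The partner chain Itgb2 (CD18), shared by the leukocyte integrins, held 2.47, 2.52, 1.39, 1.78 and 3.32 CPM in controls and 4.21, 3.2, 9.19 and 4.98 CPM in the libraries labelled knockout. Library 6 lay just below control 8, so the groups overlapped by 1 library, and the log2 fold change was 1.22 (SE 0.32, adjusted p = 0.0617). Itgax, the CD11c chain found on dendritic cells and some macrophages, held 0.774, 0.321, 0.266, 0.319 and 0.819 CPM in controls and 0.483, 1.13, 3.92 and 1.23 CPM in the libraries labelled knockout. Library 2 lay among the controls while the other 3 lay above them, and the log2 fold change was 1.72 (SE 0.57, adjusted p = 0.131), or 0.90 without library 7. The lysosomal protein gene Laptm5 had a log2 fold change of 0.76 (adjusted p = 0.204) and overlapped with controls in library 2.

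**Figure D2:**
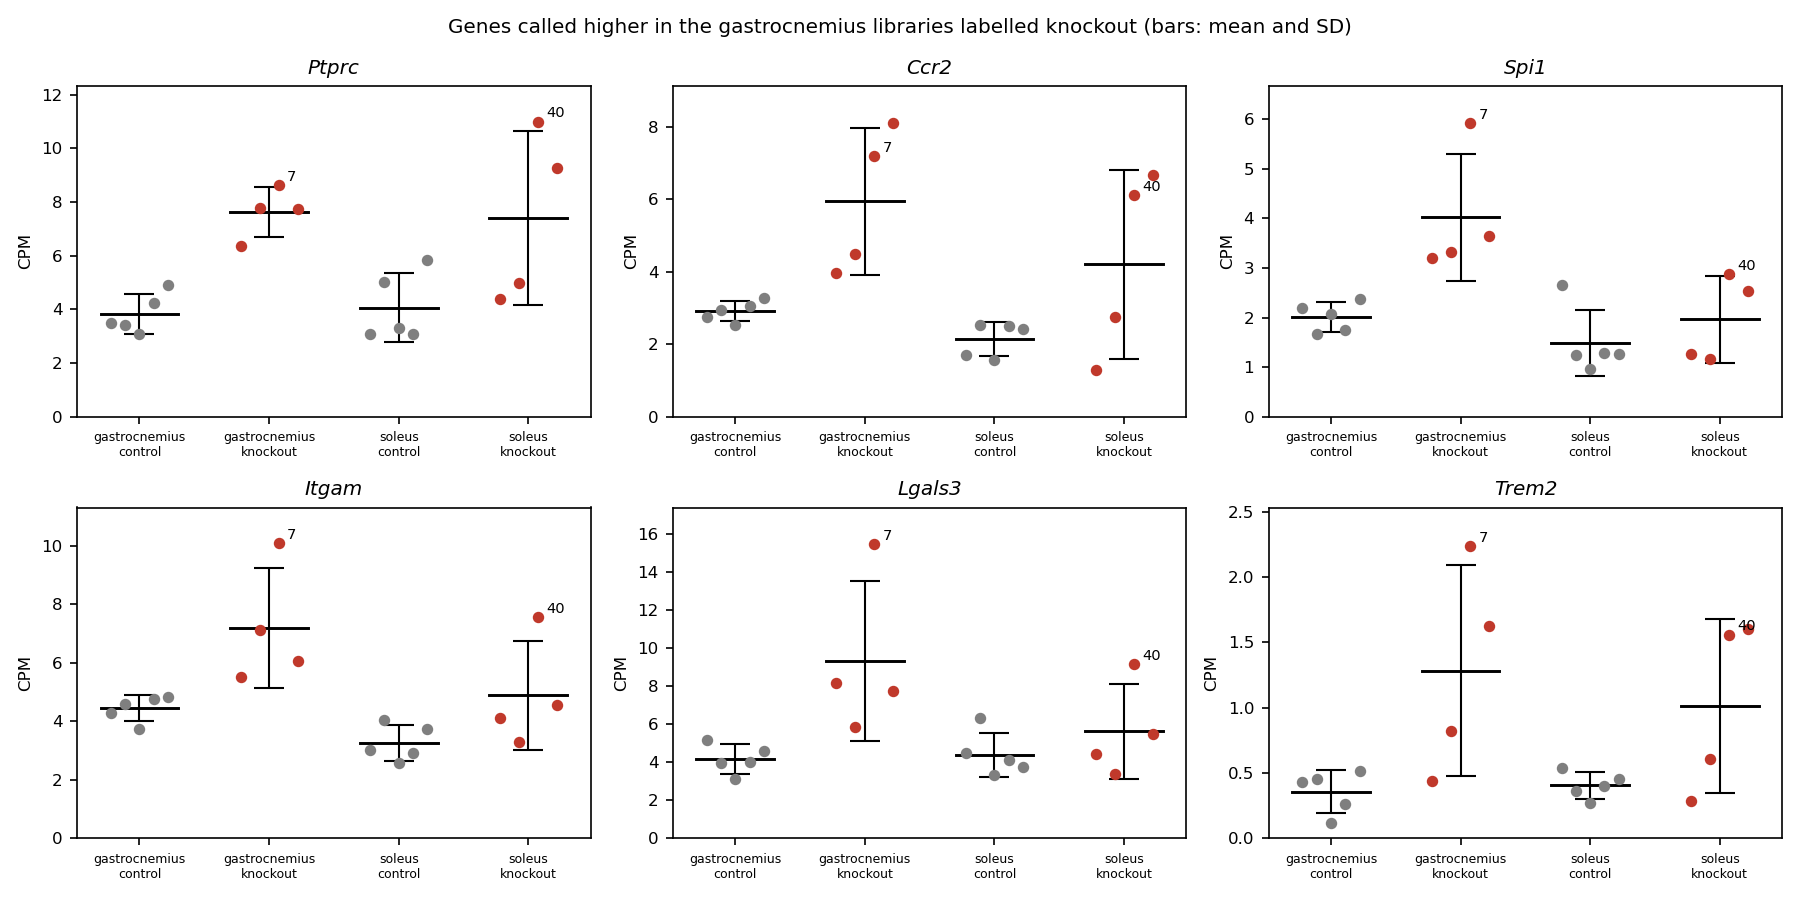
CPM in each of the 18 libraries for the 6 genes that rose in the gastrocnemius libraries labelled knockout, with the mean and SD of each group; libraries 7 and 40 are numbered. For Ptprc, Ccr2, Spi1, Itgam and Lgals3 the 4 gastrocnemius libraries labelled knockout lie above the 5 controls, and for Trem2 library 2 (0.437 CPM) lies among them.

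Among the 12 macrophage markers and lysosomal or secreted products 1 rose. Lgals3 (ENSMUSG00000050335, chromosome 14, 47367751 to 47386160), a secreted galectin of activated macrophages, held 5.18, 3.96, 3.1, 3.99 and 4.59 CPM in controls and 8.19, 5.88, 15.5 and 7.77 CPM in the libraries labelled knockout. The groups did not overlap, and library 7 was far above the next library. Lgals3 rose by 1.15 on the log2 scale (SE 0.26, adjusted p = 0.0358). The value was 0.80 without library 7 (adjusted p = 0.0205), but the call was lost without any 1 control or library 9 (0.0516 to 0.0986) and without a filter on low counts (0.11). DESeq2 called 7 of the 12 and limma voom 1. The widest differences of this role were in genes that missed the threshold by edgeR. Mpeg1, which encodes the pore-forming perforin-2 of macrophages, held 2.43, 3.8, 2.89, 2.74 and 5.13 CPM in controls and 5.57, 11.4, 33.5 and 11.2 CPM in the libraries labelled knockout. The groups did not overlap, and library 7 lay far above all others. The log2 fold change of Mpeg1 was 2.17 (SE 0.53, adjusted p = 0.0711), and without library 7 it was 1.47 and passed (adjusted p = 0.0437). Ctss, the lysosomal protease cathepsin S that trims the invariant chain, held 4.04, 3.8, 3.72, 3.37 and 5.41 CPM in controls and 6.08, 7.74, 21.6 and 7.5 CPM in the libraries labelled knockout. It too showed no overlap and 1 library far above the rest. The log2 fold change was 1.39 (SE 0.38, adjusted p = 0.0908), which became 0.80 without library 7 and passed (adjusted p = 0.0172). In Mpeg1 and Ctss, then, leaving out the highest library made the difference smaller and its standard error smaller still.

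Values varied among the macrophage markers that missed the threshold. Cd163, the scavenger receptor for haemoglobin, held 24.7, 31.2, 20.8, 24.9 and 29.2 CPM in controls and 28.7, 17.6, 25.6 and 17.3 CPM in the libraries labelled knockout. Libraries 6 and 9 were below all controls while 2 and 7 lay among them, and Cd163 was the only gene of the 38 with a negative log2 fold change (-0.23, SE 0.17, adjusted p = 0.532). Mrc1, the mannose receptor CD206, held 18.2, 18.7, 18.2, 16 and 23.1 CPM in controls and 23.4, 21.5, 32.3 and 22.6 CPM in the libraries labelled knockout. Libraries 6 and 9 lay within the controls, and the log2 fold change was 0.41 (SE 0.13, adjusted p = 0.0933), or 0.26 without library 7. Csf1r, the receptor for the macrophage growth factors Csf1 and Il34, held 21.3, 20.2, 18.8, 16.6 and 26.1 CPM in controls and 23.8, 25.1, 46.6 and 25.1 CPM in the libraries labelled knockout. Libraries 2, 6 and 9 lay inside the range of controls and only library 7 stood out, with a log2 fold change of 0.55 (adjusted p = 0.216) that was 0.26 without library 7. Exons of Csf1r overlap those of Hmgxb3 on the opposite strand, which had a mean of 1093 counts against 998 for Csf1r, and the strand setting of the counting is not given, so the level of Csf1r is uncertain. The other genes of this role were the adhesion receptor Adgre1 (F4/80, log2 fold change 0.92), the lysosomal Cd68 (1.00), the oxidase subunit Cybb (0.94), Lyz2 (0.96), the lipopolysaccharide co-receptor Cd14 (0.47) and the second lysozyme Lyz1 (0.25). Their adjusted p ran from 0.0873 to 0.506. Lyz1 and Lyz2 are near copies, and several class II and Fc receptor genes are related to each other less closely. The counts of such genes are uncertain as far as reads were shared between them.

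**Figure D3:**
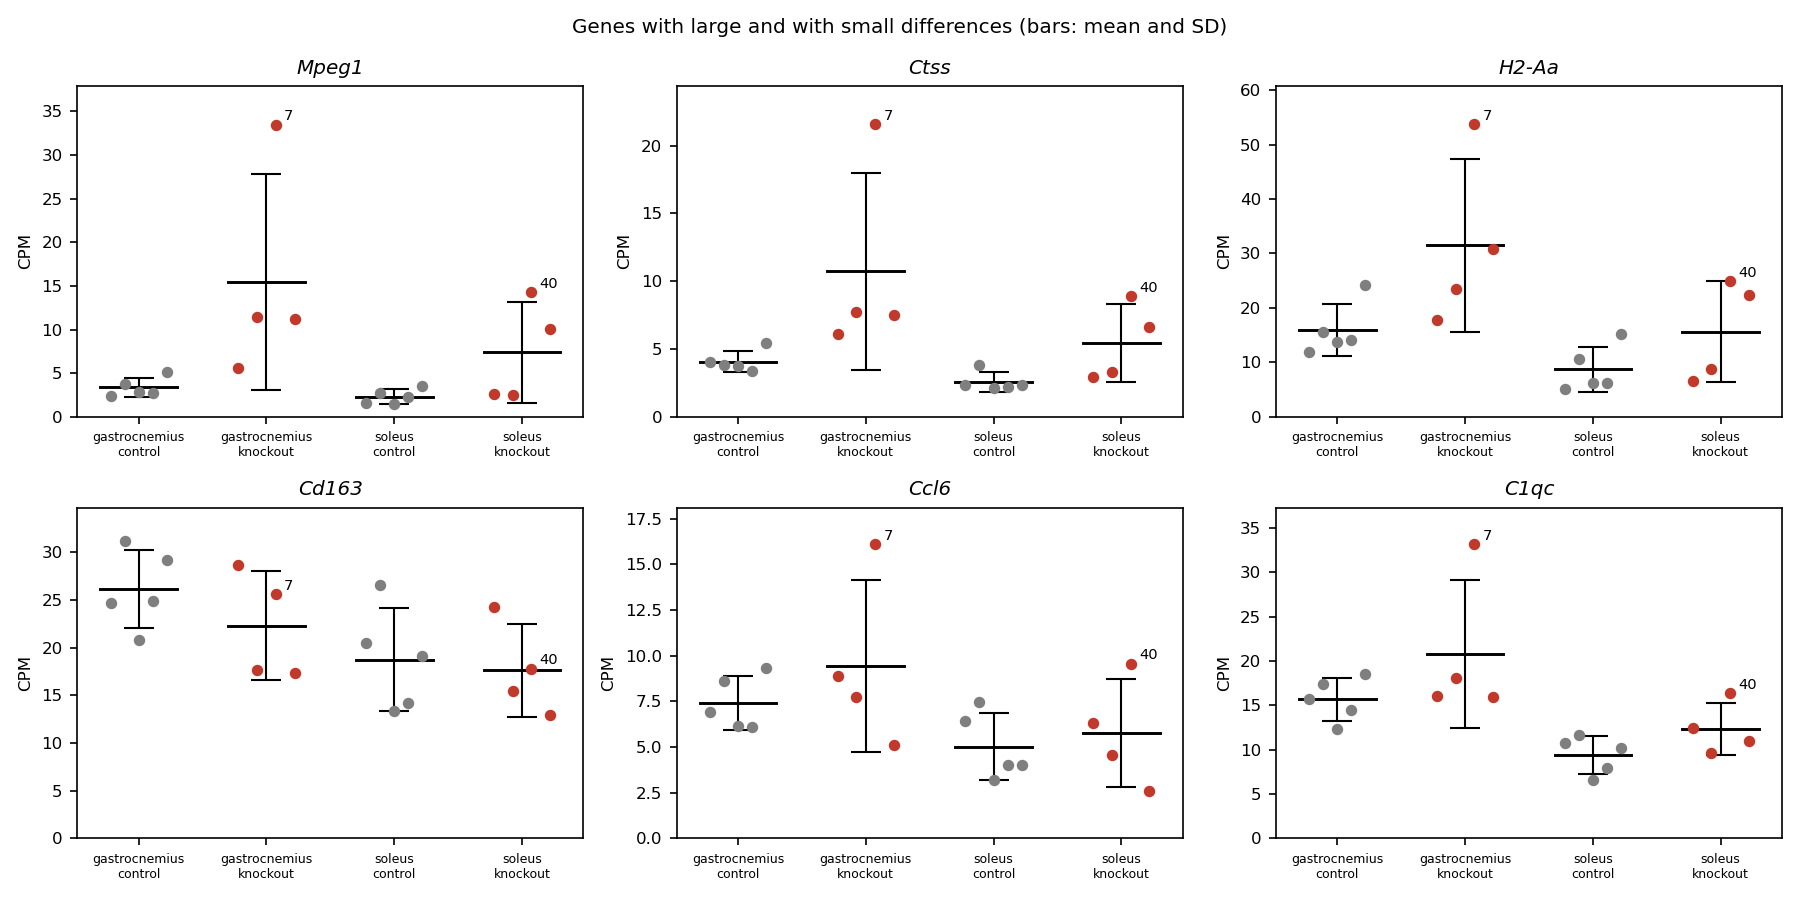
CPM in each library for 3 genes with large and 3 with small differences, with the mean and SD of each group; libraries 7 and 40 are numbered. Mpeg1, Ctss and H2-Aa are high in libraries 7 and 40 and in others labelled knockout, whereas Cd163 is at most 28.7 CPM in the gastrocnemius libraries labelled knockout against 31.2 CPM in controls, and Ccl6 and C1qc stand out in libraries 7 and 40 only.

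The 4 antigen presentation genes had nearly the same log2 fold change. By edgeR 0 of 4 rose, though all 4 had an unadjusted p under 0.05, and 1 passed by DESeq2 and 0 by limma voom. H2-Aa, the alpha chain of the class II molecule I-A, held 11.9, 15.6, 13.8, 14.2 and 24.2 CPM in controls and 17.7, 23.5, 53.8 and 30.9 CPM in the libraries labelled knockout. Control 8 stood above the other controls and above libraries 2 and 6, so the groups overlapped. The log2 fold changes were 0.98 for H2-Aa (SE 0.35), 0.95 for its partner chain H2-Ab1 (SE 0.32), 0.95 for the I-E chain H2-Eb1 (SE 0.31) and 0.93 for Cd74 (SE 0.32), with adjusted p from 0.147 to 0.182. Cd74 reached 64 CPM in control 8, above library 2 (48.7 CPM) and below libraries 6, 7 and 9 (68.8, 142 and 85.4 CPM). Without library 7 the 4 values lay between 0.58 and 0.65.

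Of the 4 complement genes 0 rose by edgeR, with 3 unadjusted p-values under 0.05, and 2 passed by DESeq2 and 0 by limma voom. The chains of C1q, the recognition unit of the classical pathway that macrophages secrete, stood out in library 7. C1qb held 9.46, 11.8, 9.65, 10.5 and 13.1 CPM in controls and 13.4, 13.3, 30.3 and 12.8 CPM in the libraries labelled knockout. Libraries 2 and 6 lay just above the top of the controls and library 9 just below it, and the log2 fold change of 0.67 (SE 0.27, adjusted p = 0.223) was 0.27 without library 7. C1qa and C1qc had log2 fold changes of 0.60 and 0.41 (adjusted p = 0.237 and 0.4), or 0.31 and 0.092 without library 7. C3ar1, the receptor for the C3a fragment, held 2.17, 2.28, 1.95, 2.21 and 2.93 CPM in controls and 2.78, 3.81, 9.74 and 4.16 CPM in the libraries labelled knockout. Its groups overlapped only in library 2, and its log2 fold change was 1.14 (SE 0.32, adjusted p = 0.077).

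Of the 6 Fc receptors and signalling adaptors 1 rose, and 3 passed by DESeq2 and 0 by limma voom. Trem2 (ENSMUSG00000023992, chromosome 17, 48346401 to 48354147), a lipid-sensing receptor of macrophages that signals through the adaptor Tyrobp, held 0.43, 0.455, 0.118, 0.266 and 0.517 CPM in controls and 0.437, 0.824, 2.24 and 1.63 CPM in the libraries labelled knockout. Library 2 lay among the controls and the others above them, on counts of 4 to 91 per library. Trem2 rose by 1.81 on the log2 scale (SE 0.47, adjusted p = 0.0488), close to the threshold, and lost its call without any 1 library other than library 2 (adjusted p = 0.068 to 0.137) and with limma voom (0.124). Fcer1g, the signalling chain of Fc receptors, held 2.54, 2.95, 1.92, 1.97 and 2.91 CPM in controls and 3.34, 3.41, 7.62 and 4.08 CPM in the libraries labelled knockout. The groups did not overlap, and the log2 fold change of 0.90 (SE 0.24) missed the threshold (adjusted p = 0.0592). Tyrobp (DAP12) had a log2 fold change of 1.07 (adjusted p = 0.124), and its 5.25 CPM in library 7 compared with 1.03 to 1.62 CPM in controls. For the IgG receptors, the activating Fcgr3 and the inhibitory Fcgr2b had log2 fold changes of 0.50 and 0.55 (adjusted p = 0.272 and 0.136). The high-affinity Fcgr1 held 0 to 46 counts per gastrocnemius library, and its log2 fold change was 1.31 (SE 0.60, adjusted p = 0.26).

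Among chemokines and their receptors 1 of 5 rose. Ccr2 (ENSMUSG00000049103, chromosome 9, 124101950 to 124113557), the receptor through which monocytes leave the marrow and enter tissue, held 2.75, 2.95, 2.54, 3.06 and 3.28 CPM in controls and 3.96, 4.5, 7.2 and 8.11 CPM in the libraries labelled knockout. Controls were tightly grouped, all 4 libraries labelled knockout lay above them, and library 9 was the highest. Ccr2 rose by 1.03 (SE 0.20, adjusted p = 0.0132; 0.0354 without library 7), and lost its call only in the fit of all 18 libraries (0.118). Its ligand Ccl2 was scarce, with 2 to 30 counts per gastrocnemius library, and its log2 fold change was 0.76 (SE 0.62, adjusted p = 0.574). The fractalkine receptor Cx3cr1 held 0.516, 0.187, 0.59, 0.956 and 0.474 CPM in controls and 0.644, 1.86, 2.91 and 0.494 CPM in the libraries labelled knockout. Only libraries 6 and 7 exceeded the controls, and library 9, the highest in Ccr2, lay among them (log2 fold change 1.43, SE 0.54, adjusted p = 0.173). Ccl6, a chemokine that macrophages release constantly, held 6.93, 8.59, 6.14, 6.11 and 9.35 CPM in controls and 8.91, 7.72, 16.1 and 5.09 CPM in the libraries labelled knockout. Library 9 was the lowest of the 9 libraries and library 7 the highest, so that the log2 fold change of 0.34 (adjusted p = 0.619) became -0.04 without library 7. Its neighbour Ccl9 had a log2 fold change of 0.41 (adjusted p = 0.304).

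The T cell genes were few in counts. Cd3e, a signalling chain of the T cell receptor, held 2.47, 0.803, 0.885, 0.531 and 0.582 CPM in controls and 4.42, 0.847, 1.41 and 0.855 CPM in the libraries labelled knockout. Control 1 and library 2 stood out, each in its own group, and the groups overlapped (log2 fold change 0.82, SE 0.64, adjusted p = 0.561). Cd3g, which belongs to the same complex, was not tested: it held 0 to 8 counts per gastrocnemius library and 0 to 12 per soleus library, including only 5 in library 2, where Cd3e held 192. A count of 0 allows up to 3 counts, which is 0.035 to 0.0885 CPM depending on the library, for counting error only.

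**Figure D4:**
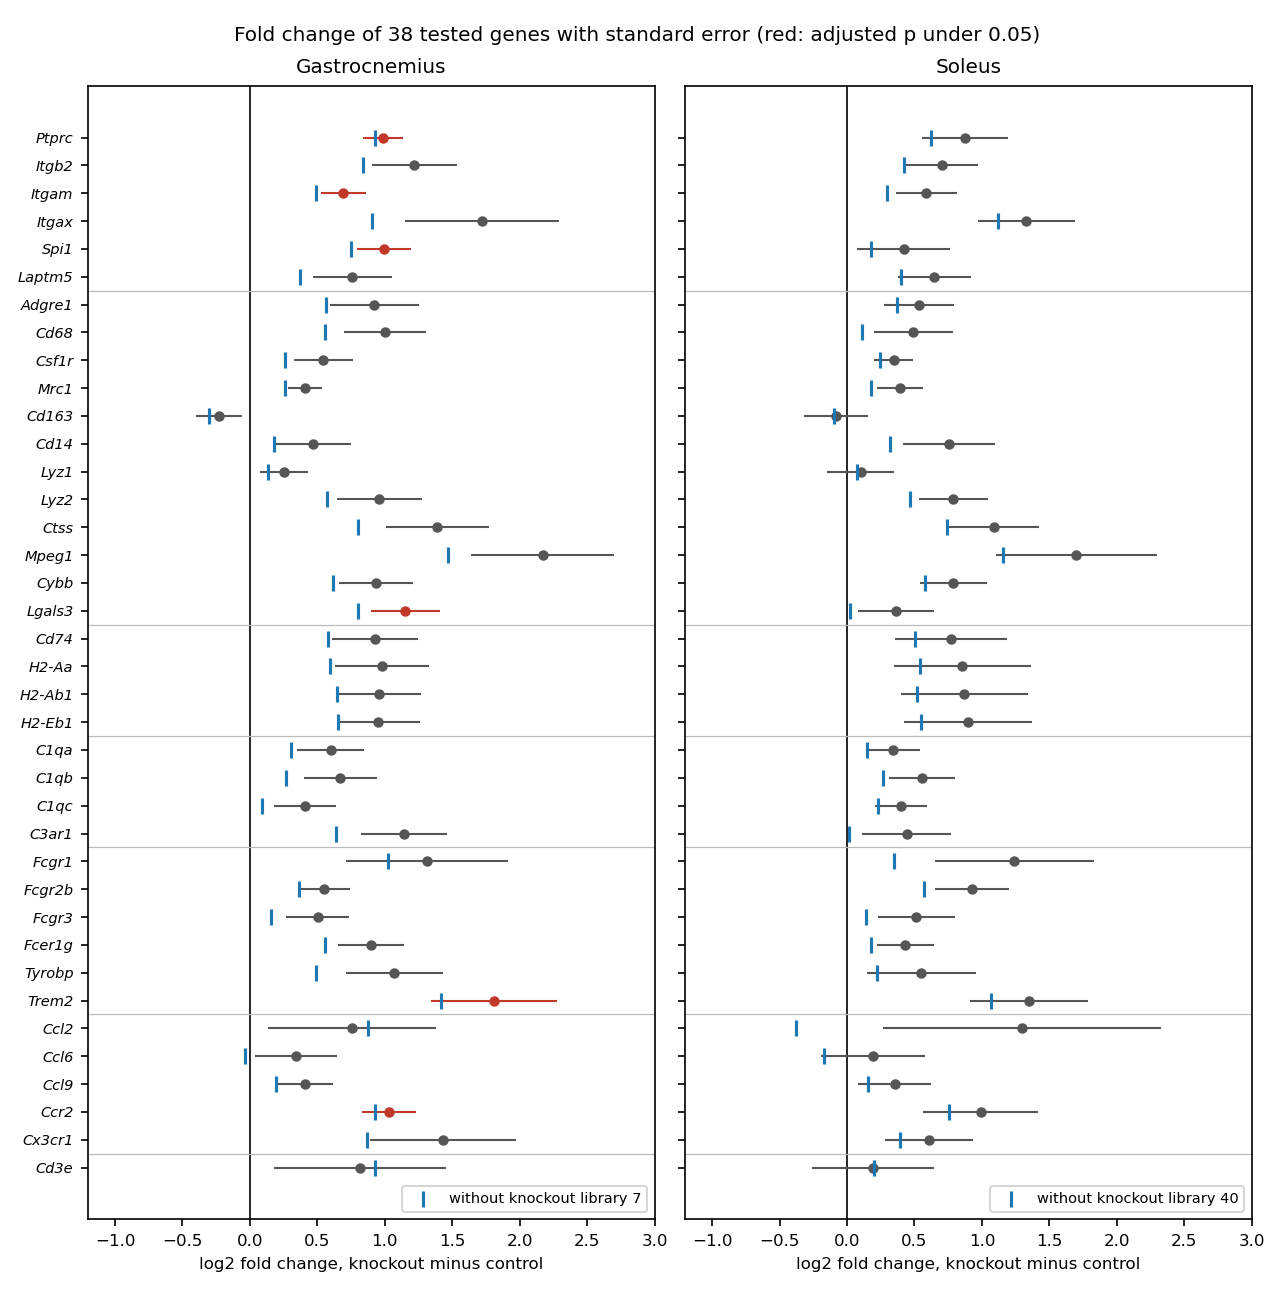
Log2 fold change (points) with standard error (lines) of the 38 tested genes in the gastrocnemius and the soleus, in order of role, with genes that passed in red and the value without library 7 or library 40 as a blue bar. In both muscles 37 of 38 points lie above 0, and the blue bars lie closer to 0 than the points for most genes; the medians are 0.93 and 0.58 without library 7, and 0.60 and 0.30 without library 40.

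In the soleus none of the 38 tested genes passed the threshold, and the smallest adjusted p was that of Itgax (0.295). By edgeR's quasi-likelihood test 0 rose and 0 fell, against 0.0387% and 0.0166% of all 18087 genes tested. The same 38 genes had 16 unadjusted p-values under 0.05 (8.19% of all genes did); DESeq2 put 2 past the threshold, Ctss and Itgax (adjusted p = 0.0444 and 0.0441), and limma voom 0. Fold changes were positive in 37 of 38 with a median of 0.60 on the log2 scale, against -0.00037 and 49.9% positive for all genes. For 0 of the 38 did the groups separate in either direction, whereas the libraries labelled knockout lay all above controls in 1.31% of genes tested and all below in 1.24%. Without library 40 the median was 0.30, with 35 positive.

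The 4 soleus libraries labelled knockout fell apart into a pair with levels near controls and a pair above them. Library 40 lay above all 5 controls in 35 of the 39 genes and library 42 in 25, but library 35 in 6 and library 39 in 4. In the gastrocnemius the corresponding numbers were 35 for library 7, 25 for library 9, 23 for library 6 and 17 for library 2. The CPM of all 39 genes summed to 196 ± 40.8 CPM (SD, n = 5) in soleus controls and 296 ± 114 CPM (SD, n = 4) in the libraries labelled knockout; it was 221 in library 35, 193 in library 39, 443 in library 40 and 328 in library 42. In the gastrocnemius the sums were 305 ± 55.6 CPM (SD, n = 5) in controls and 522 ± 215 CPM (SD, n = 4) in the libraries labelled knockout, with 839 in library 7 and 361, 421 and 467 in libraries 2, 6 and 9. Within each muscle the sums of the 2 groups overlapped.

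Itgax held 0.324, 0.513, 0.711, 0.482 and 0.616 CPM in soleus controls and 0.646, 0.805, 1.9 and 1.99 CPM in the libraries labelled knockout. Library 35 lay among the controls, library 39 just above them, and libraries 40 and 42 far above any control (log2 fold change 1.33, SE 0.36). Ptprc held 3.1, 5.01, 3.3, 3.07 and 5.86 CPM in controls and 4.38, 4.97, 11 and 9.28 CPM in the libraries labelled knockout. Libraries 35 and 39 again lay among the controls, and the log2 fold change was 0.87 (SE 0.32, adjusted p = 0.513). Ccr2 held 1.7, 2.53, 1.56, 2.51 and 2.41 CPM in controls and 1.29, 2.76, 6.11 and 6.66 CPM in the libraries labelled knockout. Library 35 was the lowest of all 9 and libraries 40 and 42 the highest, and the log2 fold change was 0.99 (SE 0.43, adjusted p = 0.602). Mpeg1 held 1.54, 2.78, 1.42, 2.27 and 3.49 CPM in controls and 2.62, 2.5, 14.3 and 10.1 CPM in the libraries labelled knockout. It had the largest log2 fold change of the 38 in this muscle too (1.70, SE 0.60, adjusted p = 0.513), or 1.16 without library 40.

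Class II genes followed the same division. H2-Aa held 5.19, 10.6, 6.28, 6.27 and 15.2 CPM in soleus controls and 6.5, 8.81, 24.9 and 22.4 CPM in the libraries labelled knockout. Control 41 lay above libraries 35 and 39, as control 8 lay above libraries 2 and 6 in the gastrocnemius. The log2 fold changes of H2-Aa, H2-Ab1, H2-Eb1 and Cd74 were 0.85, 0.87, 0.90 and 0.77, with adjusted p from 0.697 to 0.737. Trem2 held 0.535, 0.361, 0.268, 0.402 and 0.458 CPM in controls and 0.282, 0.611, 1.56 and 1.6 CPM in the libraries labelled knockout, with library 35 among the controls and library 39 just above (log2 fold change 1.35, SE 0.44, adjusted p = 0.44). Of the Fc receptors, Fcgr2b held 2.5, 3.15, 1.89, 2.25 and 2.32 CPM in controls and 4.22, 2.39, 7.56 and 4.21 CPM in the libraries labelled knockout. Here library 35 was above all controls and only library 39 lay among them (log2 fold change 0.93, SE 0.28, adjusted p = 0.401).

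Cd163 was again the only gene of the 38 with a negative value. It held 20.5, 26.6, 13.3, 14.2 and 19.1 CPM in soleus controls and 24.3, 15.5, 17.8 and 12.9 CPM in the libraries labelled knockout, with library 42 the lowest of the 9 (log2 fold change -0.085, SE 0.24, adjusted p = 0.959). Ccl6 held 6.45, 7.46, 3.21, 4.02 and 4 CPM in controls and 6.3, 4.57, 9.57 and 2.58 CPM in the libraries labelled knockout, with library 42 the lowest and library 40 the highest (log2 fold change 0.20, SE 0.39). Library 42 was below all soleus controls in Cd163 and Ccl6 and above all of them in 25 of the other genes, as library 9 was in the gastrocnemius. The C1q chains had log2 fold changes of 0.34 (C1qa), 0.56 (C1qb) and 0.40 (C1qc), Csf1r 0.34, Lyz1 0.10 and Lgals3 0.36; the last was 0.019 without library 40. Ccl2 held 108 counts in library 40 and 0 to 39 in the other soleus libraries, so its log2 fold change of 1.30 (SE 1.03) was -0.38 without that library.

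The difference of the effects was tested directly, as the knockout effect in the soleus minus that in the gastrocnemius, in 1 fit of all 18 libraries. By edgeR 0 of 38 genes passed, against 0.0703% of all 18494 genes tested; 0 of the 38 had an unadjusted p under 0.05, against 5.4% of all genes, and DESeq2 and limma voom also put 0 past the threshold. The smallest adjusted p was that of Lgals3 (0.957), with a difference of -0.81 on the log2 scale (SE 0.42). For Ptprc the difference was -0.13 (SE 0.36), for Ccr2 -0.049 (SE 0.50), for Spi1 -0.59 (SE 0.42) and for Trem2 -0.48 (SE 0.70). These standard errors are as large as many of the effects, so the passing of 6 genes in one muscle and 0 in the other is not shown to be a difference between the muscles. The median difference over the 38 was -0.16 with 33 negative. Its sign turned with 1 library: it was 0.20 with 27 positive without library 7, and -0.46 without library 40.

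Between the control muscles, the soleus had lower levels than the gastrocnemius for 8 of the 38 tested genes and higher levels for 0. The 8 (21.1%) stand beside 21.9% of all 18494 genes tested that were lower in soleus, a share that does not set these genes apart, while 27.4% of all genes were higher. In 7 of 38 (18.4%) every soleus control lay below every gastrocnemius control, as in 17% of all genes, and in 0 of 38 every one lay above, as in 19.7%. The median log2 difference, soleus minus gastrocnemius, was -0.50 with 33 negative, and that of all genes was 0.084. This comparison moved with the scaling. With library totals in place of TMM factors the median of all genes was 0.35 and that of the 38 was -0.24, all genes split into 8386 higher and 2122 lower in place of 5074 and 4048, and only Lyz1 of the 8 passed. The number that passed was also 4 without soleus control 37 or 38, 5 without gastrocnemius control 3 or 8, 13 without soleus control 36 and 15 without library 7.

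Lyz1, the lysozyme better known from the gut, held 3.25, 3.53, 2.54, 3.11 and 3.3 CPM in gastrocnemius controls and 1.47, 1.83, 0.909, 1.51 and 1.18 CPM in soleus controls. The muscles did not overlap, with a log2 difference of -1.19 (SE 0.21, adjusted p = 6.68e-05). C1qc held 15.7, 17.4, 12.3, 14.5 and 18.5 CPM in gastrocnemius controls and 10.7, 11.7, 6.52, 7.95 and 10.2 CPM in soleus controls, again without overlap (-0.74, SE 0.22, adjusted p = 0.0105). Fcgr2b (-0.80, adjusted p = 0.0122) and Csf1r (-0.60, adjusted p = 0.014) also passed, and Lyz1, C1qc, Fcgr2b and Csf1r kept their calls when any 1 library was left out. The other 4 were C1qb (-0.69, adjusted p = 0.0431), Mrc1 (-0.40, 0.0388), Cd74 (-0.96, 0.041) and Cd3e (-1.50, 0.0344), each of which lost its call in several fits with 1 library left out. For Cd3e the value rests on control 1, without which the adjusted p was 0.174. Ptprc, by contrast, had a difference of 0.082 (SE 0.25, adjusted p = 0.808), and C3ar1 of -0.0031 (SE 0.34). Gastrocnemius and soleus controls overlapped in both.

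The other genes of these pathways were followed through lists of related genes. In the gastrocnemius, 1 of 40 tested further macrophage and monocyte genes rose and 0 fell, with 36 positive and a median log2 fold change of 0.57. That gene was Csf2ra, the receptor chain for GM-CSF (0.68, SE 0.16, adjusted p = 0.0321). Of all genes tested 1.77% rose. In this list 20 of 40 had an unadjusted p under 0.05, against 18.6% of all genes. DESeq2 called 10 of the 40 and limma voom 1. Of 16 further antigen presentation genes 2 rose and 16 were positive (median 0.22). These were Ciita, the activator of class II transcription (2.18 ± 0.737 CPM (SD, n = 5) in controls and 4.14 ± 0.951 CPM (SD, n = 4) in the libraries labelled knockout; 0.92, SE 0.23, adjusted p = 0.0438), and H2-DMb1, which loads class II molecules (0.86, adjusted p = 0.0413). Of 18 further chemokines, receptors and colony-stimulating factors 2 rose and 14 were positive (median 0.50). Among those that rose was the G-CSF receptor Csf3r (1.25, adjusted p = 0.0408). Unadjusted p-values under 0.05 numbered 2 in the antigen presentation list and 7 in the chemokine list. DESeq2 called 2 and 4 of these lists, and limma voom 1 and 2. The ligands of Csf1r did not pass: the log2 fold change of Csf1 was 0.047 (SE 0.084, adjusted p = 0.829) and that of Il34 -0.063 (SE 0.19, adjusted p = 0.906). For Cx3cl1, the ligand of Cx3cr1, the value was 0.54 (adjusted p = 0.333). Of 16 further complement genes 0 passed by edgeR, DESeq2 or limma voom, 3 had an unadjusted p under 0.05, and 13 were positive with a median of 0.22. Calls in these lists were sensitive to single libraries. Csf2ra (adjusted p = 0.0612 to 0.0894), Ciita (0.0764 to 0.115), H2-DMb1 (0.0626 to 0.126) and Csf3r (0.0579 to 0.118) lost theirs without library 6, 7 or 9 and without each of several controls. In the soleus 0 genes of these 4 lists passed by edgeR, with medians of 0.54, 0.30, 0.49 and 0.062. Unadjusted p-values under 0.05 numbered 17 of 39, 2 of 16, 3 of 18 and 0 of 16 there, against 8.19% of all genes. DESeq2 called 2, 0, 2 and 0 of these lists, and limma voom 0.

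Markers of other cells were read in the same way, and their part in the differences above was not tested. Several defining markers of lymphocytes and granulocytes had few counts. The B cell gene Ms4a1 held 0 to 8 counts per library over all 4 groups, and the neutrophil gene Ly6g 0 or 1. The T cell genes Cd4 and Cd8a held at most 38 and 26 counts, and the neutrophil gene S100a8 at most 16. Of 9 tested T and natural killer cell markers in the gastrocnemius 0 rose, 7 were positive and 1 fell, the co-stimulatory receptor Cd28 (-2.47, SE 0.20, adjusted p = 3.12e-05). The summed CPM of the 22 listed T and natural killer cell genes was 8.97 to 10.2 in controls and 6.61 to 9.22 in the libraries labelled knockout. Cd28 alone held 4.12 to 5.47 CPM in controls and 0.621 to 1.18 CPM in the libraries labelled knockout. It makes up a large part of the control sum, so the lower sum does not describe the other genes of the list. Cd4, for example, had means of 0.183 and 0.509 CPM. Of 4 tested B cell markers 0 passed and 4 were positive, with sums of 33.3 to 71.5 and 40.5 to 79 CPM. Of 6 dendritic cell markers 4 were positive and 1 rose, the chemokine receptor Xcr1 (1.27, adjusted p = 0.0448). Its adjusted p was 0.068 to 0.106 without any 1 library. The sums of the dendritic cell list were 11.1 to 14.1 and 11 to 14.5 CPM. Of 2 tested neutrophil markers only 1 was positive, Csf3r, which rose as given above, with sums of 2.21 to 5.05 and 3.19 to 5.84 CPM. Of 6 mast cell markers 2 were positive and 0 passed, with sums of 13.7 to 18.7 and 12.7 to 15.9 CPM.

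Of 12 fibroblast markers 0 passed in the gastrocnemius and 10 were positive (median 0.22), with sums of 3570 to 5490 CPM in controls and 4430 to 6530 CPM in the libraries labelled knockout; the marker Pdgfra had a log2 fold change of 0.36 (adjusted p = 0.119). Of 12 endothelial markers 0 passed, with 8 positive, and Pecam1 lay at 0.065 (adjusted p = 0.664), with sums of 526 to 570 and 516 to 581 CPM. Of 10 satellite cell markers the stem cell factor Pax7 rose (0.85, SE 0.18, adjusted p = 0.0219) and the cadherin Cdh15 fell (-0.32, adjusted p = 0.0446), with sums of 3410 to 4330 and 3660 to 4090 CPM. Pax7 had means of 3.4 and 6.16 CPM and Cdh15 of 23.5 and 18.8 CPM, so these sums rest almost wholly on other listed genes. Adipocyte and Schwann cell markers pointed the other way, with 1 of 8 and 1 of 10 positive, medians of -0.38 and -0.21 and 0 called. Their sums were 522 to 697 CPM in controls and 403 to 683 CPM in the libraries labelled knockout for adipocytes, and 239 to 415 and 207 to 358 CPM for Schwann cells. Smooth muscle markers had 6 of 10 positive and red blood cell genes 1 of 6, with 0 called, and sums of 849 to 1010 and 873 to 983 CPM for the former and 160 to 330 and 192 to 337 CPM for the latter. In these lists without a call by edgeR, unadjusted p-values under 0.05 numbered 3 for fibroblast and 3 for endothelial markers, 2 for adipocyte and 1 for smooth muscle markers, and 0 for B cell, mast cell, Schwann cell and red blood cell genes. DESeq2 called 1 fibroblast marker and 0 of the others, and limma voom called 0. The call of Pax7 was lost when control 1, 4 or 5 or library 6, 7 or 9 was left out (adjusted p = 0.0512 to 0.0775), and that of Cdh15 when any 1 library was (0.0528 to 0.128). Over all 16 lists of further genes, which share a few members, edgeR called 9 of 183 tested in the gastrocnemius (51 at an unadjusted p under 0.05, 23 by DESeq2 and 7 by limma voom). Of all 16393 genes tested there, edgeR called 619, DESeq2 1235 and limma voom 577, and 18.6% had an unadjusted p under 0.05. The shares of the lists called by edgeR and limma voom were near those of all genes. The shares called by DESeq2, or with an unadjusted p under 0.05, were larger than those of all genes. The pooled lists differed among themselves. Further macrophage and monocyte genes had 20 of 40 at an unadjusted p under 0.05, and several lists had 0, as given above. In the soleus edgeR called 0 of 191, with 34 at an unadjusted p under 0.05, 4 by DESeq2 and 0 by limma voom. Of all 18087 genes tested in the soleus, edgeR called 10, DESeq2 166 and limma voom 9, and 8.19% had an unadjusted p under 0.05. Fibroblast markers there had 10 of 12 positive with a median of 0.27.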

How the data were processed

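Total RNA, depleted of ribosomal RNA (KAPA RiboErase, per the labels), was sequenced from 18 muscle libraries. The authors deposited raw read counts per Ensembl gene for each library; per the submitters' processing notes the tools named are STAR 2.5.1a, featureCounts 1.4.6-p5, Subread and bcl2fastq, with GRCm38 as build. Which annotation release and strand setting were used, and how multi-mapped reads were treated, is not given in the sources used. The deposited CPM and RPKM columns were not used. Symbols came from GENCODE mouse release 21 and matched 40254 of 41388 identifiers (97.3%); 234 of 236 further genes and all 39 described genes matched, and coordinates are those of the deposited files.

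Depth was 39.0 to 78.2 M counts. Within groups, the chi-square statistic per gene between library pairs was 19.59 to 140.3, and no libraries were merged. The test was edgeR 4.0.16 in R 4.3.3 (TMM, filterByExpr at minimum count 10 and minimum total 15, robust quasi-likelihood F-test, Benjamini-Hochberg adjustment over all genes tested, threshold 0.05). Every adjusted p is from edgeR unless another tool is named. Each knockout comparison used the 9 libraries of its muscle; the muscle comparison and the difference of effects used all 18 in 4 groups. Standard errors are the log2 fold change divided by the square root of F. Levels are CPM on TMM-scaled sizes of all 18 libraries. Promoter sequences are from a RefSeq table of GRCm38.p6, searched over 250 bases.

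Alternatives were DESeq2 1.42.0, limma 3.58.1 voom, library totals without TMM, no filter on low counts, all 18 libraries in one fit, and leaving out each library. The scripts were tested on simulated data. All 39 genes could be named; of the further lists, those called and the defining markers. One called gene of these lists is not reported here. The genes and lists were chosen with earlier results of these data known. Group labels came from the library titles, and library numbers are not shared between groups, so no pairing was fitted.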

Additional observations from a re-analysis of the deposited data

Results flagged for a closer look

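Within the groups, 16 of 156 gene and group combinations held a library far from the others of its group, by Dixon's test of the gap to the nearest library against the whole range; chance flags about 1 in 20 groups, and the genes are not independent of each other. Library 7, labelled knockout, stood above the other gastrocnemius libraries of its group in 6 genes: Spi1 at 5.92 CPM (others 3.2 to 3.65 CPM), Csf1r at 46.6 CPM (others 23.8 to 25.1 CPM), Ctss at 21.6 CPM (others 6.08 to 7.74 CPM), C1qa at 28.3 CPM (others 13.7 to 15.6 CPM), C1qb at 30.3 CPM (others 12.8 to 13.4 CPM) and C1qc at 33.2 CPM (others 15.9 to 18.1 CPM). Library 40 stood above the other soleus libraries labelled knockout in Mrc1 at 26.3 CPM (others 15.6 to 16.3 CPM) and Cd14 at 3.03 CPM (others 1.21 to 1.26 CPM). Library 2, labelled knockout, stood out in Cd3e at 4.42 CPM (others 0.847 to 1.41 CPM).

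Among gastrocnemius controls, library 1 stood out in Cd3e at 2.47 CPM (others 0.531 to 0.885 CPM), library 8 in H2-Ab1 at 28.7 CPM (others 16.9 to 19.6 CPM), and library 4 in Ccl2 at 0.885 CPM (others 0.0531 to 0.215 CPM). Control 8 also held the only counts of Cd3g in its group, at 0.0862 CPM with 0 counts in the other 4 controls. Among soleus controls, library 34 stood out in Spi1 at 2.66 CPM (others 0.956 to 1.29 CPM) and in Ccl2 at 0.632 CPM (others 0.106 to 0.245 CPM), and library 36 in Ctss at 3.82 CPM (others 2.16 to 2.38 CPM). All 16 stood out on the high side.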

How the results depend on the processing

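Across the alternatives no called value changed direction. In the gastrocnemius, the 6 genes that rose became 20 with DESeq2, 4 with limma voom, and 5 with library totals or in the fit of all 18 libraries. They became 2 to 15 when 1 library was left out. Over all genes the 619 calls became 1235 with DESeq2, 660 in the fit of all 18 libraries and 206 to 1080 with 1 library left out. In the soleus, 0 genes of the list passed became 2 with DESeq2, and stayed at 0 with limma voom, with library totals and with any 1 library left out; the 10 calls over all genes became 166 with DESeq2, 48 without a filter on low counts, 28 in the fit of all 18 libraries and 3 to 66 with 1 library left out. Between control muscles, the 8 lower genes became 17 with DESeq2, 16 with limma voom, 1 with library totals, 4 without a filter and 4 to 15 with 1 library left out, while the 9122 calls over all genes ranged from 8360 to 10508. For the difference of the knockout effects, 0 genes of the list passed under every alternative run, and the 13 calls over all genes became 52 with DESeq2, 7 with limma voom and 2 to 23 with 1 library left out. The causes of these shifts were not tested. No paired analysis was possible because the groups share no library numbers and no label ties a gastrocnemius library to a soleus library. Depth limits Cd3g, Fcgr1 and Ccl2 most, where libraries held as few as 0 counts.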
